A study of Drosophila melanogaster with 2 samples.

Results

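Collagen IV (Col4a1, vkg), the 3 chains of laminin A (LanA, LanB1, LanB2), papilin (Ppn) and the hemocyte genes eater, NimC1 and Hml were examined in fly heads shortly after a sedating dose of alcohol vapour. These 9 genes were chosen by name out of 11256 genes with at least 1 read, each as the sum of the uniquely assigned reads of all its RefSeq transcripts. Messenger RNA came from heads of adult female Drosophila melanogaster of the Canton-S strain, 3 to 5 days old. Flies of the ethanol group were kept in ethanol-saturated air for 15 min, by which time they were sedated, and then in air without ethanol for 30 min. The control group spent the same 45 min in air without ethanol. With 1 library per group, each from about 180 pooled flies, replicates are lacking and no p-value can be given. The libraries held 11763222 (control) and 11027646 (ethanol) assigned reads. Intervals are 95% intervals of counting error only.

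Hemocytes are the circulating and tissue-bound blood cells of the fly, most of them plasmatocytes that engulf microbes and dead cells. Together with the fat body they secrete much of the basement membrane, the sheet of collagen IV, laminin, perlecan and nidogen that wraps organs, including the brain. Laminin is a trimer of an alpha, a beta and a gamma chain, and collagen IV a trimer built from the chains that Col4a1 and vkg encode. In a bulk sample of heads, fewer cells of a type and less RNA per cell cannot be told apart.

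Before levels could be read, the stretch of each transcript that carried reads had to be looked at, because it differed between the genes. For vkg, LanA, LanB2, eater, NimC1 and Hml, the files held 1 transcript each, and reads covered between 90.1% and 99.98% of it in both libraries. For Col4a1 and LanB1, reads covered only a small part of every transcript. The main Col4a1 transcript (NM_164617, 5820 nt) had 88 control reads, yet these covered 4.26% of it, or 248 nt. Reads were 100 nt long, since each of the 394 transcripts with a single control read had 100 nt covered, within 1 nt. Had 88 such reads fallen evenly and independently, they would have covered 78.0% of the transcript. The other Col4a1 transcripts had 41 control reads on 8.58% of NM_164615 and 6 on 3.17% of NM_164616. For LanB1, 24 control reads covered 8.29% of NM_057270 (517 nt), against 31.9% for evenly placed reads, and 4 reads covered 3.45% of NM_164773. Ppn had 4 reads in all, which covered 4.92% of its transcript, against 5.28% for evenly placed reads.

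The annotation gives a measure of what tells these transcripts apart. In the BDGP6 annotation, used for lengths only because the authors' build was BDGP 5, the LanB1 transcripts LanB1-RA and LanB1-RB share all but 335 and 47 exonic nucleotides. The 3 Col4a1 transcripts have 165, 64 and 0 nucleotides that no other transcript of the gene holds, and the 4 Ppn transcripts have none. LanA and eater each have 1 annotated transcript, and no other gene of the annotation used overlaps any of the 9. Across all 7822 measured genes, which had 50 reads or more in the 2 libraries together, the most-read transcript was covered to a median of 95.5% in the 5983 genes with 1 transcript in the files and of 22.9% in the 1839 with more than 1. The values of Col4a1 and LanB1 therefore describe short stretches of these genes, and their RPKM, a read count divided by transcript length and by the library's total, is not a level of the whole gene.

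**Figure D1:**
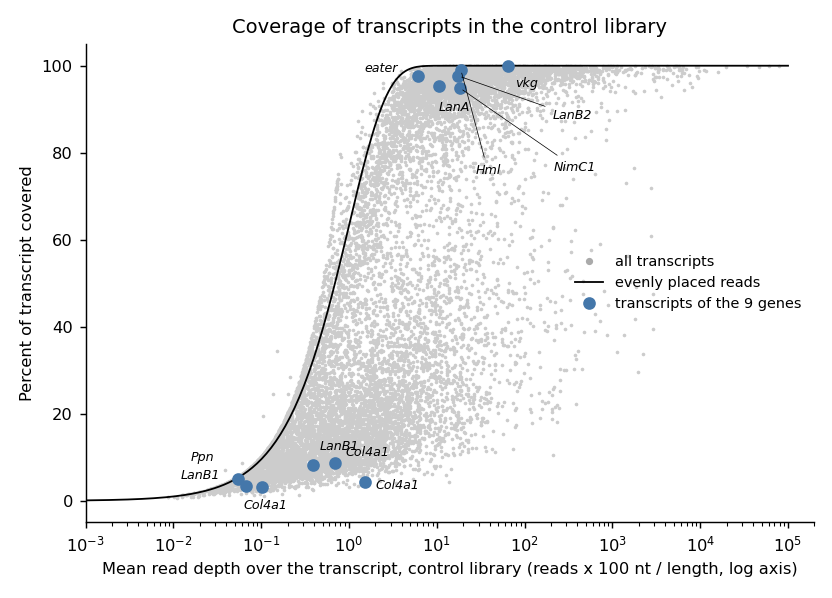
Percent of each transcript covered by reads against its mean read depth in the control library (log axis), for all transcripts (grey) and those of the 9 genes (blue), with the curve for evenly placed reads. The transcripts of vkg, LanA, LanB2, eater, NimC1 and Hml sit near the top, whereas those of Col4a1 and LanB1 lie at 3.17% to 8.58%, with the most-read Col4a1 transcript at 4.26%.

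Among the collagen IV genes, vkg (Viking, NM_057842, on chromosome arm 2L) was the most abundant of the 9. It had 4143 control and 3059 ethanol reads, or 55.5 RPKM (53.8 to 57.2) and 43.7 RPKM (42.2 to 45.3). The ethanol library was lower by more than counting error, at 0.788-fold (0.751 to 0.825), a log2 ratio of -0.34. Col4a1 lies next to vkg on arm 2L on the opposite strand, with 0 annotated genes in the 1417 nt between them. It had 135 control and 51 ethanol reads over its 3 transcripts, and fell to 0.403-fold (0.286 to 0.560), a log2 ratio of -1.31. The fall came from NM_164617, with 88 and 34 reads, and NM_164615, with 41 and 11, while NM_164616 had 6 in each library. The covered stretch of NM_164617 was of nearly the same size in both libraries, 248 and 249 nt, and that of NM_164615 went from 510 nt to 271 nt after ethanol.

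Col4a1 was the 1 of 8 measured genes of the group that passed the rule for a call, which asks for at least 2-fold with an interval that excludes a ratio of 1. Of all 7822 measured genes, 0.741% were called lower by this rule, 1.75% higher and 2.49% in either direction. Calls were more frequent among thinly covered genes: 21 of the 227 measured genes under 10% covered in both libraries were called in either direction (12 of them lower, 5.29%, and 9 higher, 3.96%), against 25 of the 4030 genes at least 90% covered (0.620%). The thinly covered genes also had a lower median control RPKM, 1.07 against 21.4, and the part of this difference in the calls was not tested. Within those 227 genes, 2 had a lower ratio than Col4a1. With a pseudocount of 1 RPKM the log2 ratio of Col4a1 was -0.72 and the call was lost. A floor of 200 reads leaves the gene out whatever its ratio, because it had 186 reads in all.

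Level was also read per covered nucleotide, a measure that by its construction raises a thinly covered gene. By RPKM, Col4a1 stood at 1.96 in control and 0.790 in ethanol heads, or 3.53% and 1.81% of vkg. The mean depth over the nucleotides that carried reads was taken per transcript and then added up over a gene's transcripts. This measure was chosen after the coverage had been seen. In the control library it was 46.7 reads per nucleotide for Col4a1, the sum of 35.5, 8.04 and 3.21 for its 3 transcripts. For vkg, with 1 transcript, it was 65.3. In the ethanol library the values were 20.4 for Col4a1 and 48.3 for vkg. For the laminin chains in the control library, RPKM was 0.384 for LanB1, 9.05 for LanA and 14.9 for LanB2. Their depth over covered nucleotides was 6.59, 11.2 and 18.0, in the same order. The LanB1 value is the sum of 4.64 and 1.95 for its 2 transcripts.

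Whether the alpha and gamma chains of laminin differed in ratio by more than counting error depended on how transcript length was treated. LanA (NM_057269, arm 3L), the alpha chain, had 1240 control and 919 ethanol reads, at 9.05 RPKM (8.55 to 9.56) and 7.15 RPKM (6.70 to 7.63). Its ratio was 0.791-fold (0.725 to 0.862), below 1 by more than counting error. LanB2 (NM_079282, arm 3L), the gamma chain, had 1012 and 928 reads, at 14.9 RPKM (14.0 to 15.9) and 14.6 RPKM (13.7 to 15.6), and its interval included 1 (0.978-fold, 0.894 to 1.07). The 2 log2 ratios differed by -0.31 (LanA minus LanB2, interval -0.49 to -0.13). With a smoothed trend of ratio on length removed, the difference was -0.041 (-0.22 to 0.14), LanA being 11652 nt long and LanB2 5757 nt. By RPKM, from which this trend was not removed, LanA stood at 60.5% of LanB2 in the control library and at 48.9% in the ethanol library. LanB1 (arm 2L), the beta chain, had 28 and 36 reads on its thinly covered transcripts, and with an interval of 0.814-fold to 2.33-fold no difference was detectable at this depth.

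Papilin, a secreted matrix glycoprotein related to ADAMTS proteases, could not be followed. Ppn (arm 3R) had 4 control reads, all on NM_001170289 of its 4 annotated transcripts, and 0 ethanol reads. In the ethanol library, 0 reads allow a level of up to 0.272 RPM, which divides by the library's total alone, and the control value was 0.340 RPM. The interval of the ratio reached up to 1.62-fold, so no difference was detectable.

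**Figure D2:**
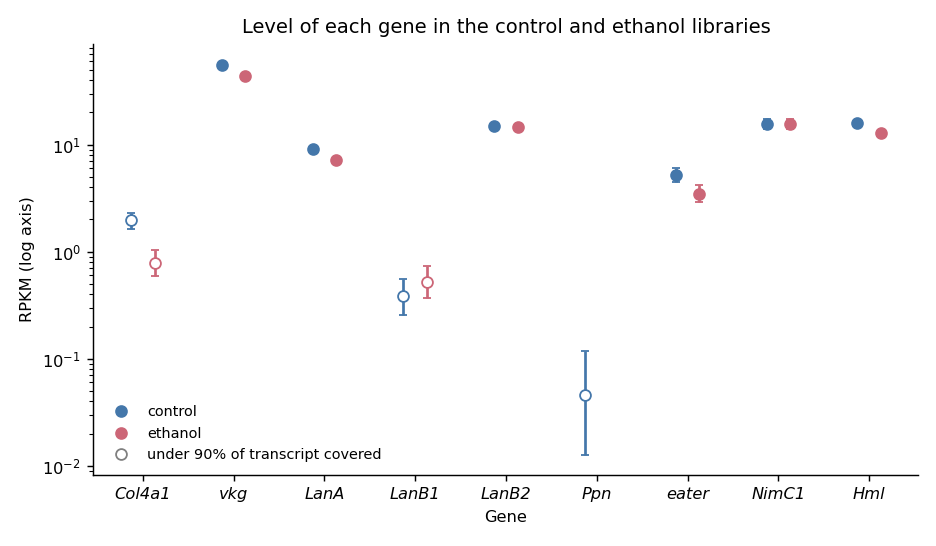
Level of each of the 9 genes in RPKM (log axis) in the control (blue) and ethanol (red) library, with 95% Poisson intervals of the read count. Open symbols mark Col4a1, LanB1 and Ppn, covered over less than 90% of the transcript, and Ppn has no ethanol point because it had 0 reads. The gene vkg is highest in both libraries, and the intervals of the 2 libraries overlap for LanB1, LanB2 and NimC1.

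Of the hemocyte genes, Hml and eater had lower values after ethanol and NimC1 did not differ detectably. Hml (hemolectin, NM_079336, arm 3L), a large clotting protein widely used to mark plasmatocytes, had 2209 control and 1676 ethanol reads, at 16.0 RPKM (15.3 to 16.6) and 12.9 RPKM (12.3 to 13.5). Its ratio was 0.809-fold (0.759 to 0.863). NimC1 (NM_135849, arm 2L), a phagocytic receptor of the Nimrod family, had 373 and 353 reads, at 15.5 RPKM (14.0 to 17.2) and 15.7 RPKM (14.1 to 17.4). The interval of its ratio was 0.870-fold to 1.17-fold. A related phagocytic receptor for bacteria is encoded by eater (NM_143276, arm 3R), which had 199 and 125 reads, at 5.22 RPKM (4.52 to 6.0) and 3.50 RPKM (2.91 to 4.17). Its ratio of 0.670-fold (0.531 to 0.842), a log2 ratio of -0.58, was below 1 by more than counting error but did not reach 2-fold. The receptors NimC1 and eater differed in log2 ratio by -0.59 (eater minus NimC1, interval -0.99 to -0.19). Per length, NimC1 was at 2.98 times the level of eater in the control library and at 4.49 times in the ethanol library.

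Across the group, intervals lay below a ratio of 1 for 5 of 8 measured genes (Col4a1, vkg, LanA, eater and Hml) and above it for 0. Among all measured genes, 15.0% had an interval below 1 and 23.9% an interval above. The median log2 ratio of the 8 was -0.32, against 0.049 over all measured genes. Summed over the 6 basement membrane genes, reads went from 6562 to 4993 (log2 ratio -0.30, interval -0.35 to -0.25), with vkg alone giving 63.1% of the control sum. Without vkg the sum was at -0.23 (-0.32 to -0.14). Summed over the 3 hemocyte genes, reads went from 2781 to 2154 (-0.28, -0.36 to -0.19), and Hml gave 79.4% of the control sum. Without Hml the hemocyte sum was at -0.17 and its interval included 0 (-0.34 to 0.012).

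The 6 well covered genes formed 2 sets by their ratios, a grouping made after the values were seen. All 15 pairs were compared by the difference of their log2 ratios, each with a 95% interval that was not adjusted for the number of pairs. The interval excluded 0 in 8 pairs, which were the 8 that set LanB2 or NimC1 against vkg, LanA, eater or Hml. In the other 7 pairs it included 0. The interval for vkg minus LanA was -0.15 to 0.14 and that for LanA minus Hml -0.19 to 0.12. These bounds cover counting error only and hold without removal of the length trend. The interval for LanB2 minus NimC1 was -0.30 to 0.21. The pair vkg and LanB2, with transcripts of 6343 and 5757 nt, differed by -0.31 (-0.46 to -0.17). This grouping was not kept with the length trend removed. There 8 intervals again excluded 0: the 5 that held eater, and those of vkg with LanA, LanB2 and Hml. Those of LanB2 with vkg and with eater, and of eater with NimC1, had excluded 0 before as well. With the trend removed, vkg minus LanB2 was -0.28 (-0.43 to -0.13) and vkg minus LanA -0.24 (-0.38 to -0.095).

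Across the whole library, the ratio was lower the longer the transcript class. Among genes with at least 500 reads, the median log2 ratio was 0.087 for the 2169 with transcripts under 2000 nt, 0.0055 for the 1318 from there to 4000 nt, -0.15 for the 480 from there to 8000 nt, and -0.38 for the 78 of 8000 nt or more. In that longest class, intervals lay below 1 for 87.2% of genes, and in the class from 4000 nt for 50.6%. LanA (11652 nt) and Hml (11768 nt), at -0.34 and -0.31, thus lay at percentiles 57.7 and 65.4 of their class. In the class from 4000 nt, vkg lay at percentile 20.4 and LanB2 at percentile 72.3. NimC1, with 2040 nt, lay at percentile 51.9 of its class. The RNA integrity number, a scale of intactness, was 6.80 for the control and 6.40 for the ethanol sample, and its part in these ratios was not tested.

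With a smoothed trend of ratio on length removed, the log2 ratios of LanA and Hml were 0.11 and 0.14, so their sign turned. For LanA the trend value of -0.446 lay inside its interval (-0.464 to -0.215), so no direction was detectable after removal. For Hml the trend value of -0.450 lay below its interval (-0.398 to -0.213), but the median of its length class, -0.384, lay inside it. A direction for Hml thus depended on how length was treated. With the trend removed, the log2 ratio of vkg was -0.13 and that of LanB2 0.15. The ratio of eater was kept at -0.58, because the trend at its 3241 nt was near 0, and that of Col4a1 was -1.13. Beside 612 genes with 200 to under 500 reads and a transcript of 2000 to under 4000 nt (median log2 ratio 0.031, SD 0.33 across genes), eater lay at percentile 3.27, with 20 genes below it.

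**Figure D3:**
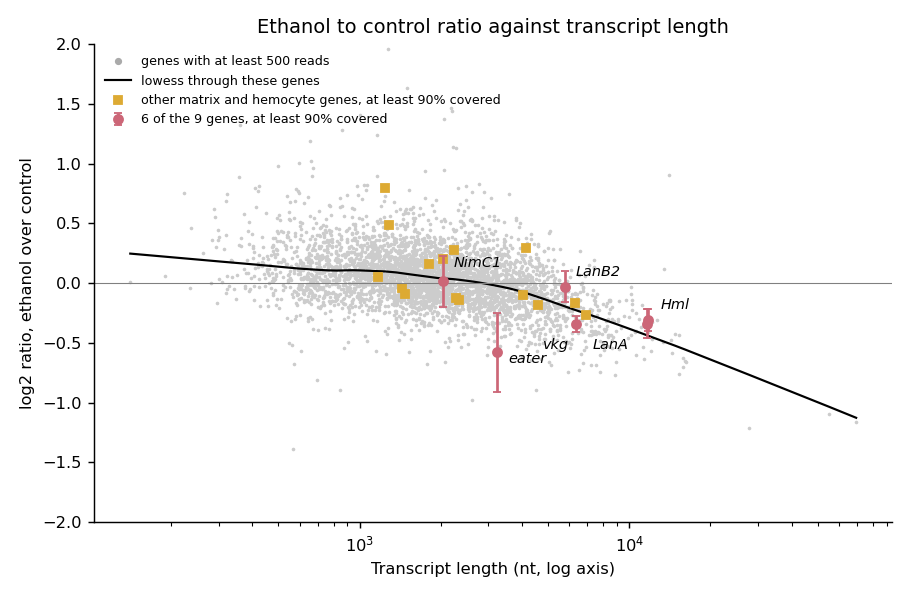
Log2 ratio of ethanol over control against transcript length (log axis) for genes with at least 500 reads (grey, with a lowess line), the 6 well covered genes of the group (red, with 95% counting intervals) and other matrix and hemocyte genes (yellow). LanA at -0.34 and Hml at -0.31 lie close to the line at their lengths, and eater at -0.58 lies below it; 9 grey points fall outside the plotted range.

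Other genes of the basement membrane gave no common direction. Of 8 further components, 4 were measured, of which 1 was called higher, 0 lower and 3 were not called, with a median log2 ratio of -0.096. The called gene was Ndg (nidogen, which bridges laminin and collagen IV), with 20 control and 50 ethanol reads (log2 ratio 1.42, interval 0.64 to 2.24). Reads covered 8.14% and 10.6% of its transcript, so this rise too rests on a short stretch. SPARC, a collagen IV binding glycoprotein, was far more abundant than the genes of the group, with 12629 and 12273 reads (918 and 951 RPKM, log2 ratio 0.052, 0.016 to 0.088). For trol (perlecan), with 274 and 217 reads, the interval included 0 (-0.24, -0.51 to 0.019). Tig (tiggrin, an integrin ligand), covered to 99.7%, had 3278 and 2552 reads and an interval below 0, as vkg and LanA had (-0.27, -0.34 to -0.19). The second laminin alpha chain, wb, had 14 and 7 reads, and Pxn (peroxidasin, which cross-links collagen IV) had 22 and 15, both under the floor of 50. The second trimer of the fly, in which wb takes the place of LanA, was thus not measured.

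Genes that make, export or remodel the matrix held 0 calls among 6 measured of 11. All 6 log2 ratios were above 0 (median 0.27), and 4 intervals lay above 0. Over all measured genes the median was 0.049, and 23.9% had an interval above 0. Tango1, which serves collagen export from the endoplasmic reticulum, was at 0.47 (90 and 117 reads, 0.063 to 0.88), the metalloproteinase gene Mmp2 at 0.29 (0.13 to 0.46) and the collagen prolyl hydroxylase gene PH4alphaEFB at 0.27 (448 and 508 reads, 0.088 to 0.46). With a floor of 20 reads, 2 genes of this list were called lower, Mmp1 (34 and 14 reads) and stl (26 and 7). AdamTS-A, with 6 and 0 reads, also had an interval below 0. Among the receptors of the basement membrane, 1 of 5 measured was called, the integrin alpha gene if, which fell (52 to 22 reads, -1.15, -1.94 to -0.40), on transcripts of which the most-read was covered to 3.80%. Intervals lay below 0 for 3 of the 5 receptor genes and above 0 for 0, with a median log2 ratio of -0.17. Over all measured genes, 15.0% had an interval below 0. The common beta chain mys, covered to 96.1%, was at -0.099 (1897 and 1661 reads, -0.19 to -0.0027). The integrin alpha gene mew, covered to 30.6% and 35.2%, was at -0.55 (139 and 89 reads, -0.95 to -0.16). Of the measured genes in the group and these matrix lists, the 3 that were called (Col4a1, Ndg and if) thus all had under 11% of the most-read transcript covered.

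Plasmatocyte and phagocytosis genes other than eater, NimC1 and Hml held 0 calls among 19 measured of 27, with 4 intervals above 0, 4 below and a median log2 ratio of -0.042. The largest ratios were those of the Nimrod genes NimB1 (61 and 99 reads, 0.79, 0.32 to 1.28) and NimC4 (76 and 100, 0.49, 0.044 to 0.94) and of the peptidoglycan receptor gene PGRP-LC (72 and 95, 0.49, 0.036 to 0.96). Other genes of this list ranged widely in level. Tep4, a thioester protein gene, had 5674 and 4686 reads and NimB2 had 5031 and 4582, whereas srp, the GATA factor of blood cells, had 257 and 274 reads, the scavenger receptor genes crq and Sr-CI 486 and 453, and 483 and 520, and the surface marker He 10 and 12. The 4 intervals below 0 were those of Tep4 (-0.18), the thioester protein genes Tep2 (-0.40) and Mcr (-0.17), and the engulfment receptor gene drpr (-0.18). Summed over this list, the log2 ratio was -0.098 (-0.13 to -0.065). Over all measured genes, 15.0% had an interval below 0 and 23.9% above. Of the clotting, crystal cell and lamellocyte genes, 7 of 8 were measured, with 0 calls and a median of -0.13. In this list 2 intervals lay below 0 and 0 above. The 2 were those of the crystal cell prophenoloxidase genes PPO1 and PPO2. PPO1 was at -0.14 (1367 and 1164 reads, -0.25 to -0.025) and PPO2 at -0.13 (2020 and 1733, -0.22 to -0.035). The ratios farthest from 0 were those of peb (-0.54), fon (0.42) and Tg (-0.31), each with an interval that included 0.

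**Figure D4:**
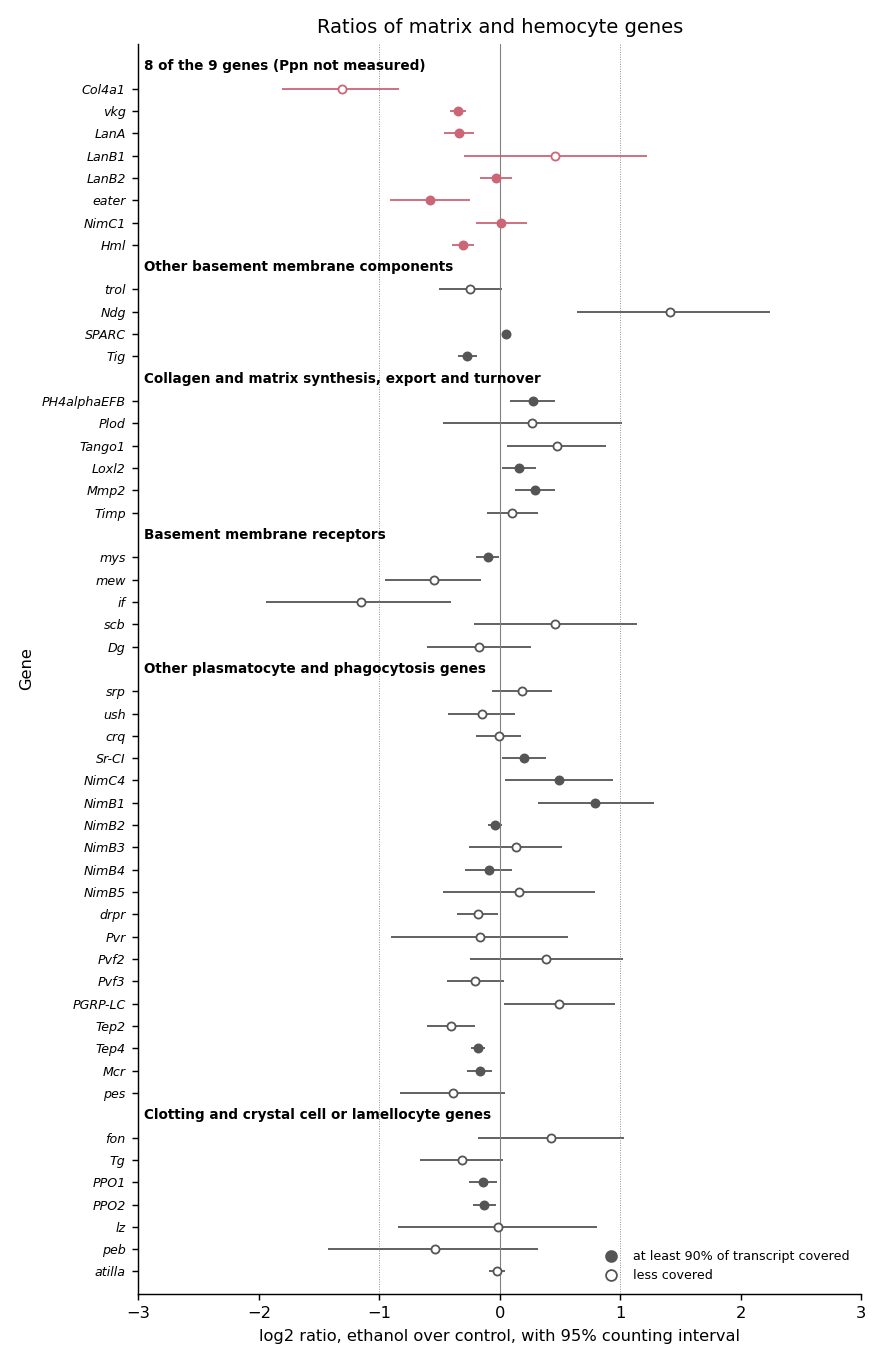
Log2 ratio of ethanol over control with 95% counting intervals for the 8 measured genes of the group (red) and the measured genes of 5 lists (grey). Filled symbols have at least 90% of the most-read transcript covered in both libraries, open symbols less, and dotted lines mark 2-fold. Col4a1, Ndg and if, which lie beyond 2-fold, are open symbols, while eater at -0.58 and vkg at -0.34 are filled.

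Among these genes and the group, 21 were measured and covered to at least 90% in both libraries. Across them, length and log2 ratio had a Spearman correlation of -0.72, of -0.68 across the 15 outside the group and of -0.20 across the 6 within it, where eater, at 3241 nt, had the lowest ratio. This is a description across genes of the same 2 libraries, which are not independent replicates. The 6 with transcripts of 5000 nt or more (vkg, LanA, LanB2, Hml, Tig and Mcr) all had log2 ratios below 0, from -0.34 to -0.032. The 15 shorter ones were split, with 7 below 0 and 8 above, from -0.58 for eater to 0.79 for NimB1.

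The fat body, which also secretes collagen IV, was followed by 9 markers, of which 7 were measured. Their summed level was 255684 RPM in control and 247588 RPM in ethanol heads, nearly all of it from the yolk protein genes Yp1, Yp2 and Yp3 (log2 ratios of -0.055, -0.026 and -0.027). The long lipoprotein genes Apoltp (13308 nt) and apolpp (10281 nt) were at -0.49 and -0.22, and the insulin-like peptide gene Ilp6, with 936 nt, at 0.56. Lsp2, with 2304 nt, was at -0.21 (2202 and 1781 reads, -0.30 to -0.12). Of the 7 measured fat body markers, 6 had intervals below 0 and 1, Ilp6, above. Summed levels of other cell types went from 793 to 655 RPM for 9 measured glia markers of 10, from 512 to 440 RPM for 8 measured neuron markers of 10, and from 2837 to 2256 RPM for 16 measured muscle markers of 17. The glia sum rests on the abundant Gs2: without it the sum was 405 and 394 RPM, and of all 9 glia markers 4 had intervals above 0 and 2 below. In the neuron sum, VAChT (7147 nt) gave 3765 of 6026 control reads and 2950 of 4852 ethanol reads. Of the 8 measured neuron markers, 4 had intervals below 0 and 0 above, with a median log2 ratio of -0.24. Without the muscle actin gene Act79B the muscle sum was 1619 and 1440 RPM (log2 ratio -0.17, -0.20 to -0.14). Of the 16 measured muscle markers, 7 had intervals below 0 and 2 above, with a median log2 ratio of -0.15. Among them 1, fln, was called higher and 0 lower. No transcript was matched to Fbp1, moody, para and Prm, nor to the scavenger receptor genes Sr-CII, Sr-CIII and Sr-CIV, so these were not analysed here. The part of these differences in the ratios of the group was not tested.

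**Figure D5:**
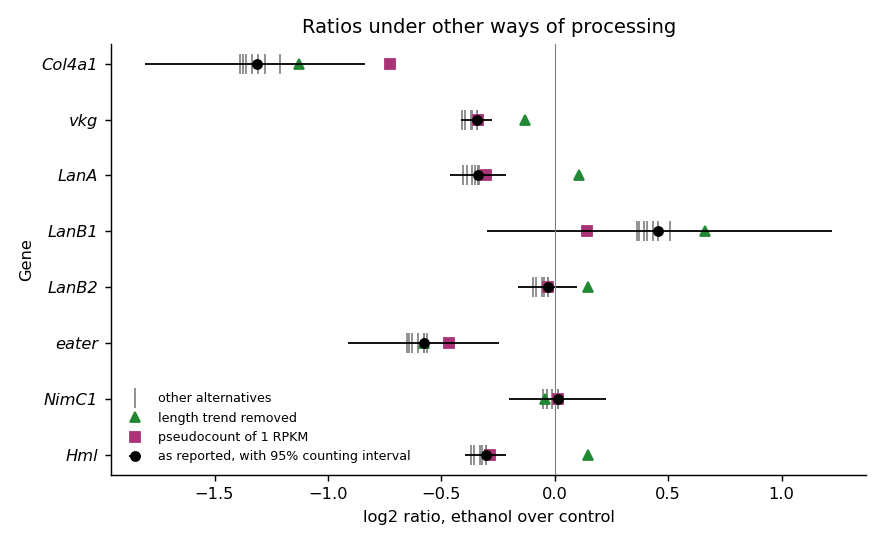
Log2 ratio of ethanol over control for the 8 measured genes as reported (black, with 95% counting interval), with the length trend removed (triangles), with a pseudocount of 1 RPKM (squares) and under 7 other ways of processing (ticks). Removing the length trend moves LanA to 0.11 and Hml to 0.14, whereas eater stays at -0.58, and the pseudocount moves Col4a1 to -0.72.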

How the data were processed

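Poly(A) RNA from heads was sequenced in 2 libraries, 1 control and 1 ethanol. The authors deposited, per RefSeq transcript, a count of unique reads, the percent of the transcript covered, and RPKM, per the file headers. A deposited table of the whole series adds a log2 ratio, a p-value and a false discovery rate per transcript, and the p-values are not used here. Its counts equalled those of the per-sample files. Reads were placed on BDGP 5, according to a build listed in the submitters' processing notes. Aligner, counter, use of strand and treatment of shared reads: not given in the sources used here.

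Of 15090 transcripts, 14521 matched a gene of the RefSeq Release 6 annotation, used for names and chromosome arms. Reads were summed per gene and scaled by the library total. Ratios carry 95% Clopper-Pearson intervals, levels exact Poisson intervals, and differences between genes exact conditional intervals (scipy 1.17.1). All cover counting error only. Called genes had at least 50 reads over both libraries, a change of at least 2-fold and an interval that excluded 1. The functions were tested on simulated data. Expected coverage took reads as even and independent.

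The 9 genes and the 9 lists were chosen with earlier results of these data known. Named were the 9 genes, the core basement membrane components, and in the matrix, hemocyte and clotting lists and the fat body list the called genes or, with no call, the 3 with the largest ratios. Glia, neuron and muscle lists are given as counts. Named after their values were seen were Tig, Mcr, mys, mew, Mmp1, stl, AdamTS-A, PPO1, PPO2, srp, crq, Sr-CI, He, Tep2, Tep4, drpr, NimB2, Lsp2, Gs2, VAChT, Act79B, fln and the yolk protein genes. Alternatives were TMM (edgeR 4.0.16), median-of-ratios scaling (DESeq2 1.42.0), totals without the 10 most abundant genes, lowess trends (fraction 0.3, statsmodels 0.14.6), pseudocounts, other floors and thresholds, summed RPKM and 1 transcript per gene.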

Additional observations from a re-analysis of the deposited data

How the results depend on the processing

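No paired analysis was possible because each group has 1 library, and for the same reason no library could be left out. Removing the length trend turned the sign of the log2 ratios of LanA (0.11) and Hml (0.14), of the median of the 8 measured genes (0.032) and of the sum of the hemocyte genes (0.070). It moved the sum of the basement membrane genes to -0.050. The cause was not tested. The hemocyte sum was -0.19 with a pseudocount of 1 RPKM and also -0.19 with 0.1 RPKM, because RPKM weights long transcripts less. The basement membrane sum was -0.37 with median-of-ratios scaling. Calls lower in the group went from 1 to 0 with a pseudocount of 1 RPKM, a floor of 200 reads, a 4-fold threshold, or, chosen after seeing the data, genes covered to at least 90% only. The floor of 200 reads and the coverage limit leave Col4a1 out whatever its ratio. A floor of 200 reads also gave 0 calls among other basement membrane components and 0 among receptors, because Ndg and if lie below it. In the list of matrix synthesis and turnover, floors of 20 reads and of 1 read gave 2 and 3 calls. Over 16 alternatives 0 genes of the group were called higher. Over 9 alternatives eater ranged from -0.65 to -0.47, vkg from -0.41 to -0.13 and Col4a1 from -1.39 to -0.72. Calls over all genes depended on the settings too, from 3 to 224 lower and from 12 to 467 higher. Depth limits LanB1 and Ppn most, with 64 and 4 reads in all.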
